A study of Mus musculus with 18 samples.

Results

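The genes described here encode 3 signalling systems of blood and lymphatic vessels: vascular endothelial growth factor (VEGF), apelin and adrenomedullin. The 10 genes are the VEGF ligand Vegfa, the VEGF receptors Kdr, Flt1 and Flt4, the co-receptor Nrp1, the apelin ligand Apln with its receptor Aplnr, and the peptide gene Adm with the receptor parts Calcrl and Ramp2. A probe set, the array's unit of measurement for a transcript, was taken as a member if the platform annotation named 1 of these genes and no other. The rule gave 22 of 45101 probe sets, of which 21 passed the filter on low values that kept 25746 in all. The probe set left out was 1 of 3 for Calcrl. Every gene kept at least 1 probe set, so all 10 are among the 12412 genes measured, and each is represented first by its brightest kept probe set.

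Lung RNA was measured on single-colour oligonucleotide arrays in mice of 3 inbred strains, A/J, C57BL/6J, spelled C57BL6/J by the submitters, and C3H/HeJ, with 3 untreated and 3 irradiated samples of each. Irradiated mice received 18 Gy of caesium gamma rays to the whole thorax at 8 weeks of age, while a lead shield cut the beam to 3% over the rest of the body. They were killed when moribund, defined by a loss of over 20% of body weight together with ruffled fur, fast breathing and a hunched posture, and the right lung was taken whole. Per the labels, the A/J mice were then 30 to 32 weeks old (22 to 24 weeks after exposure), the C57BL/6J mice 28 to 30 weeks (20 to 22 weeks after) and the C3H/HeJ mice 20 to 22 weeks (12 to 14 weeks after). Untreated mice of each strain were 15 to 26 weeks old, so age, time and strain cannot be told apart from each other in comparisons between irradiated strains. Irradiated A/J and C57BL/6J mice were also older than every control, so within these strains age and irradiation cannot be told apart. All irradiated mice were chosen by illness, and no array holds irradiated lung without it. The irradiated samples are separate mice per the labels, whereas for controls the labels name only 3 samples, so that spread may be technical.

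VEGF-A binds the receptor kinases KDR (VEGFR2) and FLT1 (VEGFR1) on blood endothelium, with NRP1 as a co-receptor that enhances signalling through KDR, and FLT4 (VEGFR3) is the receptor for VEGF-C and VEGF-D that marks mainly lymphatic endothelium. Apelin is a secreted peptide, made by tip cells of sprouting vessels among others, that signals through the G protein-coupled receptor APLNR. Adrenomedullin, a peptide that dilates vessels and tightens endothelial junctions, binds CALCRL, which reaches the cell surface as a receptor only with a RAMP partner: RAMP2 or RAMP3 gives an adrenomedullin receptor, and RAMP1 a receptor for CGRP. In the lung, a tissue rich in capillaries, KDR, CALCRL and RAMP2 are strongly expressed by endothelium, and VEGF-A is made largely by alveolar type 1 epithelium. Hypoxia raises the transcription of VEGFA, ADM and APLN, and ETS factors drive many endothelial genes.

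Promoter windows are shown for the 4 genes that have an entry and whose brightest probe set changed in at least 1 strain: the ligand genes Apln and Adm and the receptor genes Calcrl and Nrp1. Each is the 250 bases before the gene's start in RefSeq's GRCm38.p6 annotation, 5′ to 3′ on the gene's strand. Capitals mark GGAAG, the core of ETS sites, or its reverse complement CTTCC, and ACGTG, the core of hypoxia response elements, or its reverse complement CACGT. Both strands were searched, and a CACGTG holds ACGTG and is also an E-box (CANNTG). The windows lie at chrX:48034854-48035103 (minus strand) for Apln, chr7:110627407-110627656 (plus strand) for Adm, chr2:84425267-84425516 (minus strand) for Calcrl and chr8:128358823-128359072 (plus strand) for Nrp1.
Apln: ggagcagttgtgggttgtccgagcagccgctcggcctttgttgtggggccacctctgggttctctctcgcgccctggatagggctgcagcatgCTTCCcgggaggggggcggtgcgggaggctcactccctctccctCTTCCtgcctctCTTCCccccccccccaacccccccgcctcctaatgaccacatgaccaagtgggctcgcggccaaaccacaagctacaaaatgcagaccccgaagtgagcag
Adm: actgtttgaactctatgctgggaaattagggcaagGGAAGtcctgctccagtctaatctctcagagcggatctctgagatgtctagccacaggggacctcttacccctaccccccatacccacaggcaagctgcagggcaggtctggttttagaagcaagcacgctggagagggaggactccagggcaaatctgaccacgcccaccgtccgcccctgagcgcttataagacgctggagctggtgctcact
Calcrl: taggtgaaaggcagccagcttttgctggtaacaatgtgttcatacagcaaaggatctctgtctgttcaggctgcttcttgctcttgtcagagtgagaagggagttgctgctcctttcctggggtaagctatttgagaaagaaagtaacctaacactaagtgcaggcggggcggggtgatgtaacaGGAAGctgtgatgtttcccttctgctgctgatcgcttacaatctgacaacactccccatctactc
Nrp1: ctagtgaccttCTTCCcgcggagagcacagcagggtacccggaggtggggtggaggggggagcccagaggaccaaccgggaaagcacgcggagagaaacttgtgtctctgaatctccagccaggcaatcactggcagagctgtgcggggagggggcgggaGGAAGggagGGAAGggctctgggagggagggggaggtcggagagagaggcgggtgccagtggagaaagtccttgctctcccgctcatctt
The ETS core is in all 4 windows, with 3 matches in Apln and in Nrp1 and 1 each in Adm and Calcrl, and none of the 4 holds the hypoxia core. Over the 8 member genes with an entry, which have 9 windows because Vegfa has 2, the ETS core is in all 9 and the hypoxia core in 1. That one is the Vegfa window at chr17:46025164-46025413 (minus strand). It lies downstream of the gene's other annotated start, so its match is not upstream of the whole gene. The other Vegfa window, further upstream at chr17:46032378-46032627 (minus strand), does not hold the hypoxia core. Among all 32841 windows of this length, 64.1% hold the ETS core, 16.6% the hypoxia core and 66.2% an E-box. These matches are letters in a short window and were not set against the array values. Aplnr and Ramp2 are named without a window.

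Values for the strains come in the order A/J, C57BL/6J, C3H/HeJ where none is named. Levels are given as normalized log2 signal, that is log2 of the deposited signal plus 7 after quantile normalization between arrays, and a difference of 1 on this scale is a 2-fold change. A change was called when limma's adjusted p was under 0.05. Over all genes, 23.4% were called in A/J (14.7% higher, 8.71% lower), 3.79% in C57BL/6J (2.2% higher, 1.59% lower) and 20.9% in C3H/HeJ (11.7% higher, 9.21% lower). Several arrays stand apart. The ratio of 5′ to 3′ signal of actin, a measure of RNA integrity, was 0.413 to 0.551 in irradiated A/J lung and 0.677 to 0.766 in the other 15 arrays. The same ratio for Gapdh was 0.294 in A/J irradiated 1 and 0.876 to 1.30 in all other arrays. Krt4, a keratin of squamous linings such as the oesophagus, was at 11.5 and 11.7 in C57BL/6J controls 1 and 3 and at 10.9 in A/J irradiated 3, and between 3.06 and 6.13 elsewhere. C3H/HeJ irradiated 3 lay 0.649 of the way from A/J to C3H/HeJ controls over 50 probe sets that separate the untreated strains, against 0.947 and 0.972 for its group's other arrays.

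In moribund lung, the receptor genes Aplnr and Calcrl fell in all 3 strains, and the ligand gene Apln rose in all 3. The Calcrl call in C57BL/6J was made in 16 of 28 alternative settings. Ramp2, the partner of Calcrl, fell in A/J and C3H/HeJ, as did the co-receptor Nrp1. Adm rose in C57BL/6J. Kdr, Flt1, Flt4 and the brightest Vegfa probe set passed the test in no strain. By brightest probe set, 1 of the 10 genes was called higher and 4 lower in A/J, 2 higher and 2 lower in C57BL/6J, and 1 higher and 4 lower in C3H/HeJ. The median change of the 10 was −0.33, −0.33 and −0.53 in strain order, beside 0.09, −0.01 and 0.01 over all 12412 genes. The control and irradiated arrays did not overlap for 5, 8 and 6 of the 10 genes in the strains in that order. Over all genes, 25.2% lay wholly higher and 15.2% wholly lower in A/J, 11.7% and 12.5% in C57BL/6J, and 21.4% and 18.9% in C3H/HeJ.

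**Figure D1:**
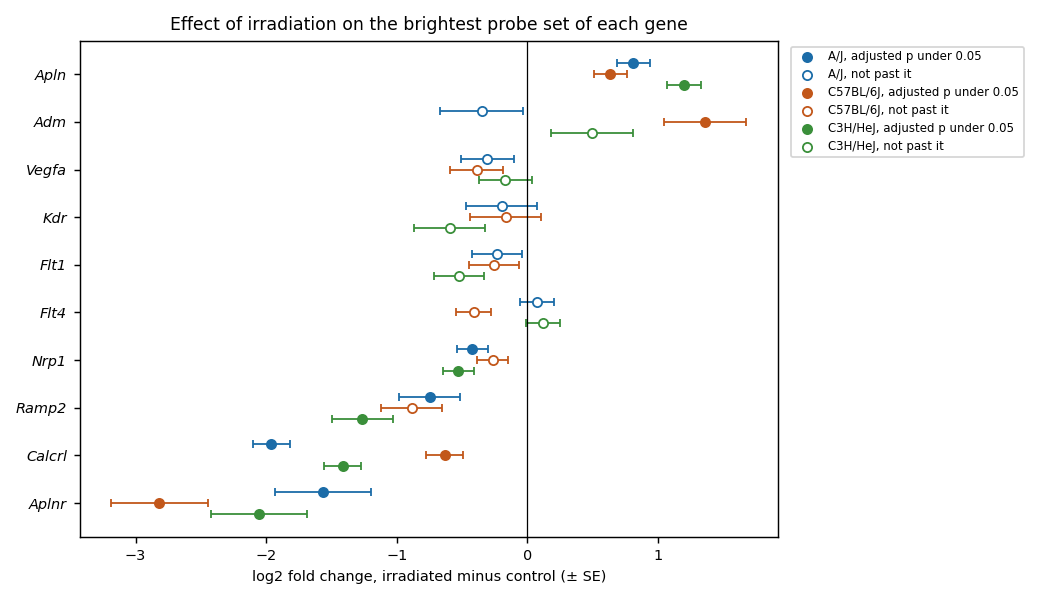
Log2 fold change of the brightest probe set of each gene, irradiated minus control (x axis, bars ± SE, 3 against 3 arrays), with a colour for each of the 3 strains; filled points have an adjusted p under 0.05 in limma. Apln lies above 0 and Aplnr and Calcrl below it with filled points in every strain, while Kdr, Flt1, Flt4 and Vegfa have open points throughout.

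Apln encodes the apelin precursor. In A/J its level was 7.59, 7.51 and 7.53 in the controls and 8.29, 8.44 and 8.33 after irradiation. In C57BL/6J it was 7.33, 7.45 and 7.34 against 7.78, 8.22 and 8.03, and in C3H/HeJ 7.93, 7.68 and 7.90 against 9.11, 9.19 and 8.81. Every irradiated array lay above every control of its strain. Apln rose by 0.81 ± 0.13 (SE) in A/J (1.76-fold, limma adjusted p = 0.000302), 0.64 ± 0.13 in C57BL/6J (1.55-fold, adjusted p = 0.0146) and 1.20 ± 0.13 in C3H/HeJ (2.29-fold, adjusted p = 2.15e-05). Deposited signals of Apln ran from 106 to 190.2 over all controls and from 222 to 702 over all irradiated arrays. Before scaling, irradiated arrays were also brighter as a whole, with the median of all probe sets higher by 0.46, 0.06 and 0.56 in strain order. Without scaling the rise of Apln was called in A/J and C3H/HeJ but not in C57BL/6J.

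Aplnr encodes the apelin receptor. Its brightest probe set read 10.97, 11.08 and 10.84 in A/J controls and 8.48, 9.86 and 9.86 in irradiated A/J lung. In C57BL/6J it read 8.88, 8.68 and 9.03 against 5.51, 6.95 and 5.69, and in C3H/HeJ 11.23, 11.18 and 11.12 against 8.68, 9.06 and 9.63. No irradiated array reached the lowest control of its strain, and C57BL/6J lung was lower than the other strains in both states. Aplnr fell by 1.56 ± 0.37 in A/J (2.96-fold, limma adjusted p = 0.00549), 2.82 ± 0.37 in C57BL/6J (7.05-fold, adjusted p = 0.000781) and 2.05 ± 0.37 in C3H/HeJ (4.15-fold, adjusted p = 0.00125). A dimmer probe set also fell in each strain, by 1.16 ± 0.25, 1.32 ± 0.25 and 1.66 ± 0.25, with limma adjusted p of 0.00333, 0.0109 and 0.00037. In C57BL/6J the deposited signal of the brighter probe set was 328 to 546 in controls and 40.6 to 96.9 after irradiation.

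Ligand and receptor thus changed in opposite directions in each strain. Of the other genes listed for the apelin system 7 were measured. In A/J, 2 were called higher and 2 lower, and in C3H/HeJ 1 higher and 2 lower. Arrb2, a beta-arrestin that takes up activated receptors, rose in A/J (0.72 ± 0.14) and C3H/HeJ (0.66 ± 0.14). The related Arrb1 fell in A/J by 0.39 ± 0.13 and in C3H/HeJ by 0.73 ± 0.13. Gna13, a G protein subunit, fell in A/J by 0.98 ± 0.14 and had a change of −0.49 ± 0.14 in C3H/HeJ that turned to a positive 0.24 without scaling. Gnai2, another such subunit, rose in A/J (0.46 ± 0.11). Without scaling 0 of the 7 genes were called lower in A/J or C3H/HeJ, so the Gna13 and Arrb1 falls were not called. With median centring 1 was called lower in A/J and 0 in C3H/HeJ. In C57BL/6J the 7 genes lay between −0.57 and 0.33 and none was called by limma.

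**Figure D2:**
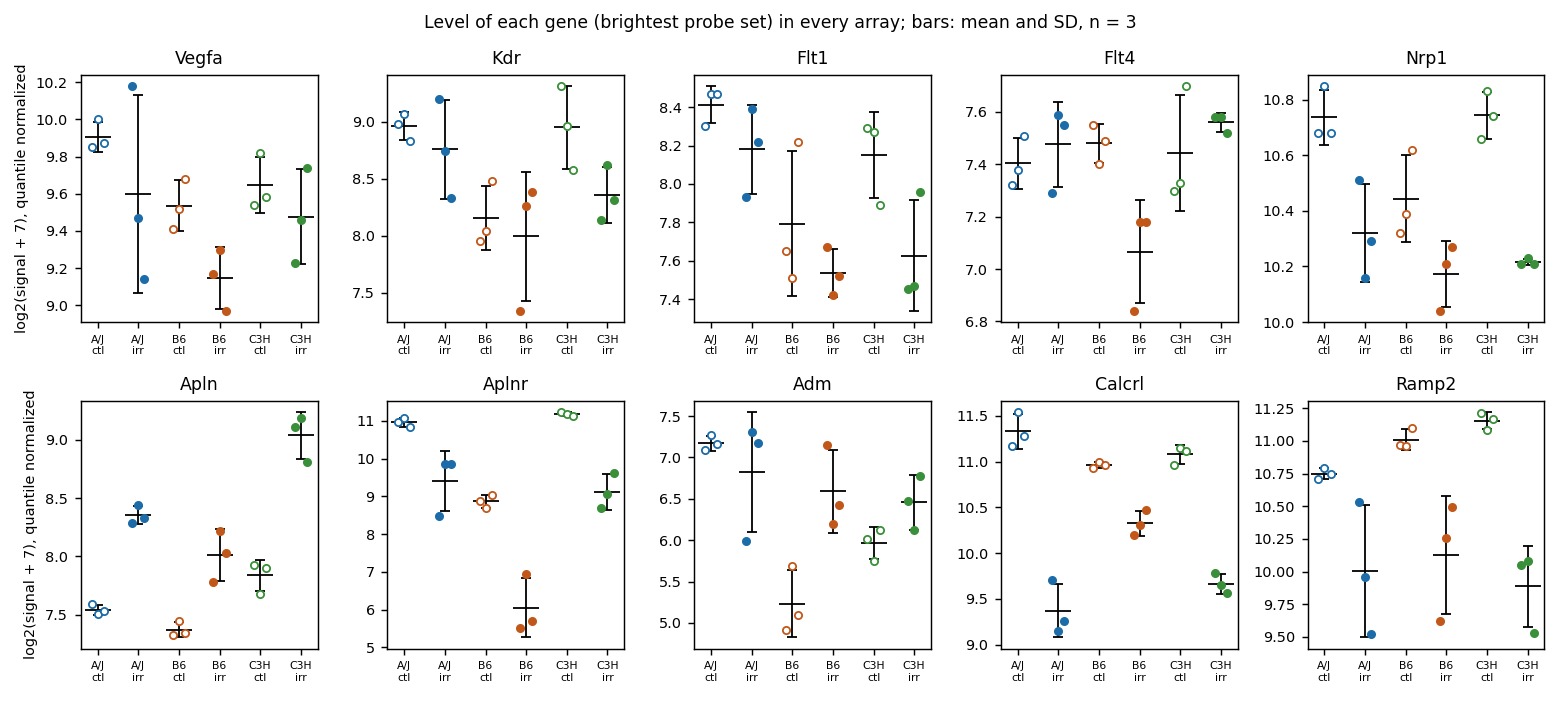
Normalized log2 signal of the brightest probe set (y axis, its own range in each panel) in every array, with open points for control (ctl) and filled points for irradiated (irr) lung of A/J, C57BL/6J (B6) and C3H/HeJ; bars give the mean and SD of 3 arrays. Apln is higher and Aplnr and Calcrl are lower in all irradiated arrays than in any control of the strain, and Aplnr in irradiated C57BL/6J lung has the lowest values of its panel (5.51 to 6.95).

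Adm encodes the adrenomedullin precursor. Its brightest probe set read 4.91, 5.69 and 5.10 in C57BL/6J controls and 7.15, 6.19 and 6.43 after irradiation. In A/J it read 7.09, 7.27 and 7.16 against 5.99, 7.31 and 7.17, and in C3H/HeJ 6.02, 5.75 and 6.12 against 6.47, 6.12 and 6.78. The C57BL/6J groups did not overlap, whereas in A/J the groups overlapped and A/J irradiated 1 was the low array. Adm rose by 1.36 ± 0.31 in C57BL/6J (2.57-fold, limma adjusted p = 0.0299). The change was −0.35 in A/J (95% interval −1.02 to 0.32, adjusted p = 0.45) and 0.50 in C3H/HeJ (−0.17 to 1.16, adjusted p = 0.297). In untreated lung Adm was higher in A/J than in C57BL/6J by 1.94 ± 0.31 (3.85-fold, limma adjusted p = 0.000612) and than in C3H/HeJ by 1.21 ± 0.31 (2.32-fold, adjusted p = 0.0376). The former call was lost without the 3 arrays high in Krt4 (adjusted p = 0.092), and the latter in 9 of 27 alternatives, among them leaving out any one control of either strain (adjusted p from 0.00076 to 0.13). No pair of irradiated strains passed the test for Adm.

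A second Adm probe set (of a type that marks probes shared with other transcripts) differed from the first in C3H/HeJ. There it read 5.31, 5.44 and 5.70 in controls and 6.62, 6.61 and 7.26 after irradiation, without overlap. It rose by 1.35 ± 0.27 in C3H/HeJ (limma adjusted p = 0.00315) and by 1.29 ± 0.27 in C57BL/6J (adjusted p = 0.0205), with −0.24 ± 0.27 in A/J (adjusted p = 0.561). The probe sets are thus alike in A/J and C57BL/6J in what was called, and the call in C3H/HeJ rests on which one is read.

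Calcrl encodes the receptor shared by adrenomedullin and CGRP. Its brightest probe set read 11.17, 11.54 and 11.28 in A/J controls and 9.70, 9.15 and 9.26 after irradiation. In C57BL/6J it read 10.93, 11.0 and 10.96 against 10.20, 10.31 and 10.47, and in C3H/HeJ 10.96, 11.15 and 11.12 against 9.78, 9.65 and 9.56. All irradiated arrays lay below all controls, and the C57BL/6J ones stayed nearest to them. Calcrl fell by 1.96 ± 0.14 in A/J (3.89-fold, limma adjusted p = 7.99e-07), 0.63 ± 0.14 in C57BL/6J (1.55-fold, adjusted p = 0.0258) and 1.42 ± 0.14 in C3H/HeJ (2.67-fold, adjusted p = 1.41e-05). The second probe set fell by 3.00 ± 0.26 in A/J (7.99-fold, adjusted p = 2.64e-06) and 2.21 ± 0.26 in C3H/HeJ (4.64-fold, adjusted p = 4.29e-05), with −0.71 ± 0.26 in C57BL/6J (adjusted p = 0.159). Its irradiated A/J values were 7.16, 5.97 and 5.90. The third probe set, left out by the filter, lay between 4.34 and 5.08 in controls and 2.89 and 4.64 after irradiation. Without scaling, the lead probe set's fall in C3H/HeJ was 0.67 and was not called (adjusted p = 0.12). In C57BL/6J its fall was called in 16 of 28 alternatives, with changes from −0.71 to −0.23. That call was lost without scaling, with median centring, with endothelial scaling and without the filter, among others.

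Ramp2 encodes the partner that turns CALCRL into an adrenomedullin receptor. It read 10.71, 10.79 and 10.75 in A/J controls and 10.53, 9.96 and 9.52 after irradiation. In C57BL/6J it read 10.97, 10.96 and 11.10 against 9.62, 10.26 and 10.49, and in C3H/HeJ 11.21, 11.08 and 11.17 against 10.05, 10.08 and 9.53. Controls were tight and irradiated arrays scattered, but no group pair overlapped. Ramp2 fell by 1.27 ± 0.23 in C3H/HeJ (2.40-fold, limma adjusted p = 0.00147) and by 0.75 ± 0.23 in A/J (1.68-fold, adjusted p = 0.0273). In C57BL/6J the change was −0.89 ± 0.23, with an adjusted p of 0.0532. The A/J call was lost in 11 of 28 alternative settings, among them leaving out any one A/J control (adjusted p from 0.00427 to 0.667 over the 28), and the C3H/HeJ call only without scaling. A further 2 probe sets whose annotation names Ramp2 together with Vps25 were not used.

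Of 11 other genes listed for the adrenomedullin and CGRP system 9 were measured, without Calca and Adm2. By strain, 2 were called higher and 2 lower in A/J, 2 higher in C57BL/6J, and 2 higher and 2 lower in C3H/HeJ. Ramp3, the other RAMP that makes an adrenomedullin receptor, rose where Ramp2 was lower: by 0.97 ± 0.19 in A/J (limma adjusted p = 0.0013), 0.73 ± 0.19 in C57BL/6J (adjusted p = 0.044) and 1.30 ± 0.19 in C3H/HeJ (adjusted p = 0.00021). Ackr3, a receptor that scavenges chemokine CXCL12 and adrenomedullin, rose in C57BL/6J (0.68 ± 0.17) and C3H/HeJ (0.81 ± 0.17). Mme, a membrane peptidase, fell by 1.65 ± 0.13 in A/J and 1.09 ± 0.13 in C3H/HeJ. Pam, which amidates adrenomedullin and other peptides, fell by 1.67 ± 0.41 in A/J. Without scaling or with median centring 0 of the 9 genes were called in C57BL/6J, so the Ramp3 and Ackr3 calls there were lost. Without scaling 3 were called higher and 0 lower in C3H/HeJ, so the Mme call there was lost.

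Vegfa gave different answers by probe set. The brighter one read 9.85, 10 and 9.87 in A/J controls and 10.18, 9.47 and 9.14 after irradiation, with A/J irradiated 1 above every control. The second (of a type that marks probes for several transcripts of a gene) read 8.53, 8.42 and 8.35 in A/J controls and 7.0, 7.14 and 7.03 after irradiation. It read 7.93, 8.20 and 8.39 against 7.36, 7.44 and 7.48 in C57BL/6J, and 8.44, 8.34 and 8.41 against 7.90, 7.87 and 7.48 in C3H/HeJ. For this second probe set, irradiated arrays lay below all controls in each strain.

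The brighter Vegfa probe set changed by −0.31 ± 0.20 in A/J (95% interval −0.74 to 0.12), −0.39 ± 0.20 in C57BL/6J (−0.82 to 0.04) and −0.17 ± 0.20 in C3H/HeJ (−0.60 to 0.26), with limma adjusted p of 0.295, 0.36 and 0.613. Without A/J irradiated 1 its fall in A/J was called (0.60, adjusted p = 0.016). The second probe set fell by 1.37 ± 0.13 in A/J (2.59-fold, limma adjusted p = 5.35e-06), 0.75 ± 0.13 in C57BL/6J (1.68-fold, adjusted p = 0.00635) and 0.65 ± 0.13 in C3H/HeJ (1.57-fold, adjusted p = 0.0029). Without scaling none of these falls was called: the second probe set then changed by −0.84 in A/J (adjusted p = 0.064), −0.66 in C57BL/6J (adjusted p = 0.94) and 0.04 in C3H/HeJ, where the median of all probe sets moved by 0.56. With endothelial scaling the calls in C57BL/6J (−0.34) and C3H/HeJ (0.06) were lost, with median centring that in C3H/HeJ, and with only the groups compared or without the 3 arrays high in Krt4 that in C57BL/6J. Which transcripts each probe set reads was not analysed here.

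**Figure D3:**
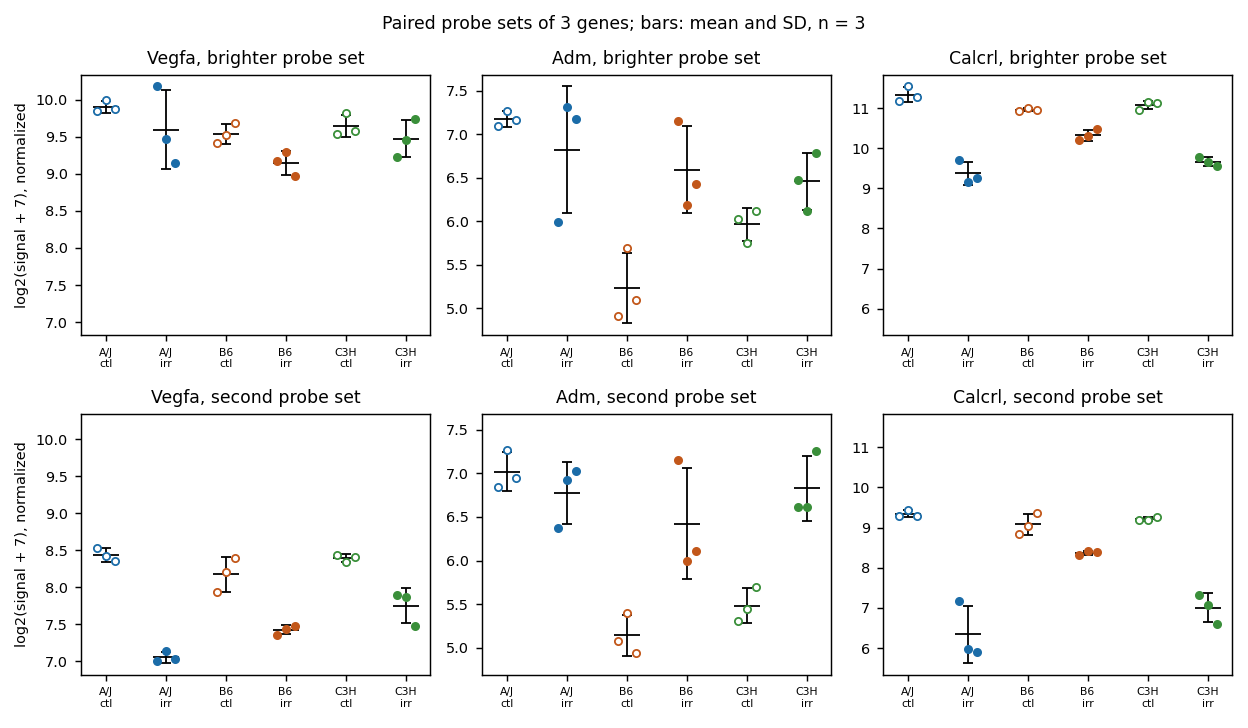
Normalized log2 signal in every array for the brighter (top) and second (bottom) probe set of Vegfa, Adm and Calcrl, with open points for control and filled points for irradiated lung; bars give the mean and SD of 3 arrays, and both rows of a gene share a y range. The second Vegfa probe set separates the groups in every strain and the brighter one only in C57BL/6J, and irradiated A/J lung has the lowest mean for both Calcrl probe sets.

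Kdr encodes VEGFR2, the main signalling receptor for VEGF-A. It read 8.98, 9.07 and 8.83 in A/J controls and 9.20, 8.74 and 8.33 after irradiation. In C57BL/6J it read 7.95, 8.04 and 8.48 against 7.34, 8.26 and 8.38, and in C3H/HeJ 9.31, 8.96 and 8.58 against 8.14, 8.62 and 8.31. The groups overlapped in every strain, with A/J irradiated 1 the highest of the A/J arrays and C57BL/6J irradiated 1 the lowest of all. The changes were −0.20 in A/J (95% interval −0.78 to 0.38), −0.17 in C57BL/6J (−0.74 to 0.41) and −0.60 in C3H/HeJ (−1.17 to −0.02), with limma adjusted p of 0.639, 0.828 and 0.143.

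Flt1 encodes VEGFR1, which binds VEGF-A and PlGF and can act as a decoy. Its brightest probe set read 8.29, 8.27 and 7.89 in C3H/HeJ controls and 7.45, 7.47 and 7.96 after irradiation, and the overlap came from C3H/HeJ irradiated 3. The change there was −0.53 (95% interval −0.93 to −0.12, limma adjusted p = 0.0666), and without that array it was −0.69 with an adjusted p of 0.032. In A/J the change was −0.23 (−0.63 to 0.17) and in C57BL/6J −0.26 (−0.66 to 0.15). The other 3 Flt1 probe sets lay between −0.30 and 0.37 in the 3 strains and none was called by limma.

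Flt4 encodes VEGFR3. Its brightest probe set read 7.55, 7.40 and 7.49 in C57BL/6J controls and 6.84, 7.18 and 7.18 after irradiation, without overlap, a change of −0.41 (95% interval −0.69 to −0.13, limma adjusted p = 0.109). In A/J it changed by 0.07 (−0.21 to 0.35) and in C3H/HeJ by 0.12 (−0.16 to 0.40). A dimmer probe set changed by 0.31 ± 0.12, −0.32 ± 0.12 and −0.17 ± 0.12 in strain order, and none of these was called. Of 4 lymphatic endothelial markers measured, Mmrn1 fell in C57BL/6J by 0.70 ± 0.14 and in C3H/HeJ by 0.69 ± 0.14, and the hyaluronan receptor gene Lyve1 fell in C3H/HeJ by 1.07 ± 0.28. Without scaling or with median centring none of the 4 was called lower in any strain, and 1 was called higher in C3H/HeJ.

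Nrp1 encodes a co-receptor for VEGF-A and class 3 semaphorins. Its brightest probe set read 10.68, 10.85 and 10.68 in A/J controls and 10.51, 10.16 and 10.29 after irradiation. In C57BL/6J it read 10.32, 10.39 and 10.62 against 10.04, 10.21 and 10.27, and in C3H/HeJ 10.66, 10.83 and 10.74 against 10.21, 10.23 and 10.21. The groups did not overlap in any strain, though the gaps were small. Nrp1 fell by 0.42 ± 0.12 in A/J (1.34-fold, limma adjusted p = 0.0143) and 0.53 ± 0.12 in C3H/HeJ (1.44-fold, adjusted p = 0.00523), and without scaling these turned to 0.13 and 0.21, that is −0.33 and −0.35 relative to the median of all probe sets. In C57BL/6J the change was −0.27 ± 0.12 (adjusted p = 0.258). Each of the 3 dimmer Nrp1 probe sets had a negative change in each strain, from −0.35 to −0.89. Of these, 2 were called in A/J and 1 of them in C3H/HeJ.

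The other VEGF ligands and co-receptors, 9 genes, had 3 called higher and 2 lower in A/J and 2 higher and 2 lower in C3H/HeJ. In C57BL/6J they lay between −0.56 and 0.53 and none was called by limma. Pgf, the placental growth factor that binds FLT1, rose by 1.13 ± 0.35 in A/J and 1.39 ± 0.35 in C3H/HeJ. Nrp2, the second neuropilin, rose by 0.49 ± 0.16 and 0.55 ± 0.16 in the same strains. Without C3H/HeJ irradiated 3, 0 of the 9 genes were called higher in C3H/HeJ, so the Pgf and Nrp2 calls there rest on that array. The semaphorin genes Sema3c and Sema3f fell in A/J by 1.40 ± 0.31 and 0.99 ± 0.15, and Sema3a, a NRP1 ligand, had a change of −0.58 ± 0.13 in C3H/HeJ that was called but turned to a positive 0.09 without scaling. Sema3c and Sema3f were not called without scaling.

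Of 23 genes measured that relay signals from VEGF receptors, 6 were called higher in A/J, 1 higher in C57BL/6J, and 6 higher and 1 lower in C3H/HeJ. Without C3H/HeJ irradiated 3 the C3H/HeJ counts became 2 higher and 0 lower. The lipid kinase gene Sphk1 rose by 1.54 ± 0.18 in A/J and 1.41 ± 0.18 in C3H/HeJ, and the endothelial nitric oxide synthase gene Nos3 by 0.88 ± 0.13 and 0.52 ± 0.13. The small heat shock protein gene Hspb1 rose in A/J (0.73 ± 0.14), the protein kinase C gene Prkcb in C57BL/6J (0.90 ± 0.17), and Nfatc2 (0.78 ± 0.24) and Vav3 (0.69 ± 0.22) in C3H/HeJ. Of 16 genes known to respond to VEGF in endothelium, 5 were called higher and 4 lower in A/J, 1 and 1 in C57BL/6J, and 5 and 3 in C3H/HeJ. Dll4, a Notch ligand induced by VEGF in tip cells, fell in all 3 strains, by 1.76 ± 0.17, 0.89 ± 0.17 and 1.31 ± 0.17. Unc5b, a netrin receptor gene of sprouting vessels, rose in all 3, by 0.72 ± 0.17, 0.79 ± 0.17 and 1.02 ± 0.17. Its C57BL/6J call was lost without scaling and with median centring, where 0 of the 16 were called higher in that strain. Without scaling the numbers called lower became 2 in A/J and 1 in C3H/HeJ. Plvap, which forms diaphragms of fenestrae and caveolae, fell by 1.87 ± 0.43 in A/J and 2.31 ± 0.43 in C3H/HeJ. Nr4a3, which encodes an orphan nuclear receptor, rose by 1.65 ± 0.49 in A/J and 2.33 ± 0.49 in C3H/HeJ, and Cd34, a sialomucin gene of endothelium and progenitor cells, rose by 1.62 ± 0.17 in C3H/HeJ.

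Notch genes that act with VEGF, 10 measured, had 2 called higher and 2 lower in A/J, 3 lower in C57BL/6J and 6 lower in C3H/HeJ. Without scaling these became 2 higher in A/J, 1 lower in C57BL/6J, and 2 higher and 1 lower in C3H/HeJ, and median centring gave the same counts except for 1 higher in C3H/HeJ. The Notch target Hey1 fell by 0.79 ± 0.17, 1.37 ± 0.17 and 1.87 ± 0.17 in the 3 strains. Hes1, another Notch target, was called lower in A/J (−0.87 ± 0.19) and C3H/HeJ (−0.84 ± 0.19), and the ligand gene Dll1 in C57BL/6J (−0.66 ± 0.17) and C3H/HeJ (−0.75 ± 0.17). Nrarp, a target that feeds back on Notch, fell in C57BL/6J by 0.68 ± 0.14, and the ligand gene Jag2 rose in A/J (0.93 ± 0.23). Neither the Hes1 and Dll1 calls nor that of Nrarp held without scaling or with median centring. The A/J call of Hey1 was lost under both settings too. Of 16 genes known to respond to hypoxia, 6 were called higher and 1 lower in A/J, 1 higher in C57BL/6J, and 6 higher and 1 lower in C3H/HeJ. Ankrd37, a target of hypoxia-inducible factor, rose in all 3 strains, by 1.30 ± 0.28, 1.87 ± 0.28 and 1.77 ± 0.28. Ndrg1 rose by 1.65 ± 0.20 in A/J, and Ddit4, an inhibitor of mTOR, by 1.27 ± 0.28 in A/J and 1.28 ± 0.28 in C3H/HeJ. The glycolysis gene Ldha rose by 0.71 ± 0.16 in A/J and 0.93 ± 0.16 in C3H/HeJ. The list medians were 0.20, 0.10 and 0.46, beside all-gene medians of 0.09, −0.01 and 0.01.

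**Figure D4:**
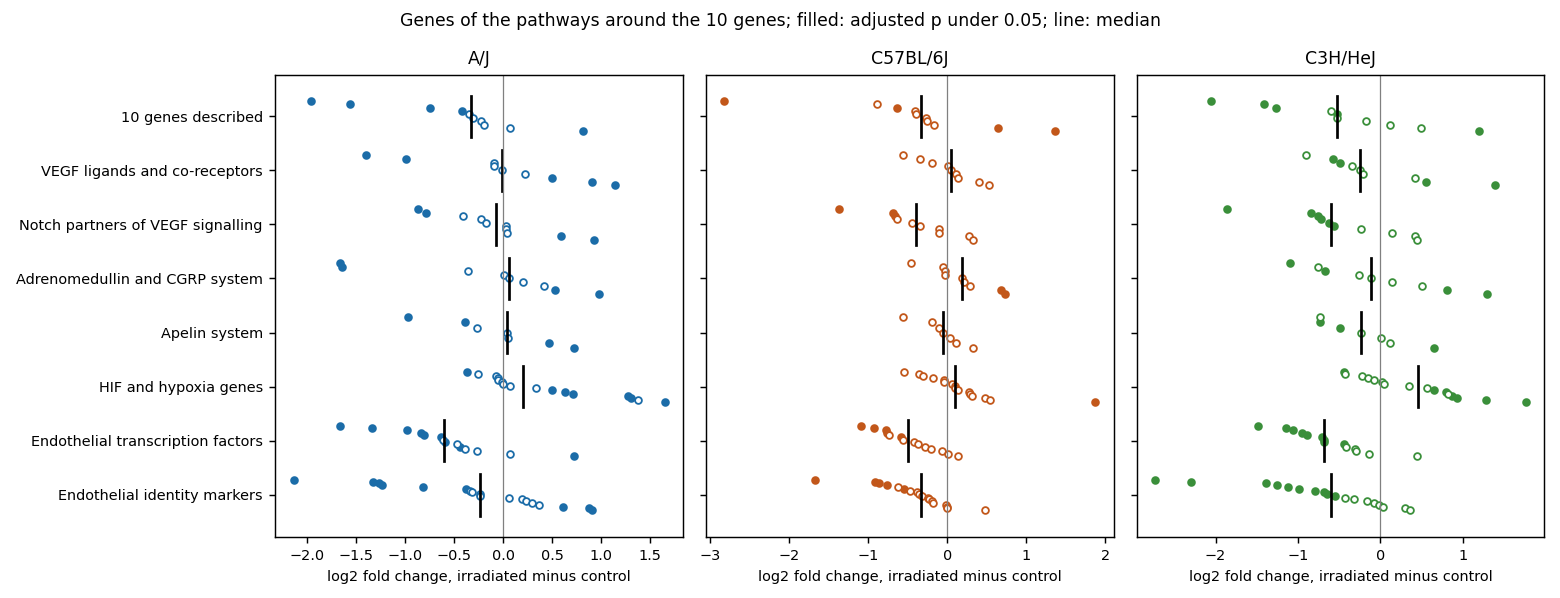
Log2 fold change, irradiated minus control, of the brightest probe set of each gene (x axis) in the 10 genes described and 7 lists of related genes (y axis), for the 3 strains; filled points have a limma adjusted p under 0.05 and black lines mark medians. The 10 genes have medians of −0.33, −0.33 and −0.53, and the endothelial transcription factors and identity markers also have medians below 0 in each strain under this scaling, though not for identity markers in A/J and C3H/HeJ without scaling (0.34 and 0.15).

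Some markers of endothelium fell in each strain, as Aplnr and Calcrl did, whereas the receptor genes Kdr, Flt1 and Flt4 were called in no strain. In A/J the identity markers went both ways, with changes from −2.14 to 0.90. Of 18 endothelial identity markers, 3 were called higher and 6 lower in A/J, 5 lower in C57BL/6J and 10 lower in C3H/HeJ, with list medians of −0.24, −0.34 and −0.60. Tek, the angiopoietin receptor gene, fell in all 3, with changes of −2.14 ± 0.18, −1.68 ± 0.18 and −2.74 ± 0.18, and so did Ptprb, which encodes a phosphatase that restrains that receptor (−1.33 ± 0.16, −0.86 ± 0.16 and −2.30 ± 0.16). The tight junction gene Cldn5 fell in A/J by 1.26 ± 0.36, and the endothelial surface protein gene Clec14a in C57BL/6J by 0.92 ± 0.11 and in C3H/HeJ by 1.39 ± 0.11. The mean level of the 18 markers ranged from 9.37 to 9.49 in A/J controls and 9.10 to 9.29 after irradiation, from 9.33 to 9.40 and 8.58 to 9.17 in C57BL/6J, and from 9.54 to 9.65 and 8.86 to 8.89 in C3H/HeJ. Of 14 endothelial transcription factors, 1 was called higher and 8 lower in A/J, 5 lower in C57BL/6J and 9 lower in C3H/HeJ. Sox18 fell by 0.64 ± 0.14, 0.93 ± 0.14 and 0.95 ± 0.14, and Sox7 by 0.59 ± 0.14, 0.58 ± 0.14 and 1.15 ± 0.14. Sox17 fell by 1.09 ± 0.28 in C57BL/6J and 1.49 ± 0.28 in C3H/HeJ, Foxf1 by 0.98 ± 0.31 in A/J and 1.06 ± 0.31 in C3H/HeJ, and Tal1 by 0.78 ± 0.15 in C57BL/6J. In A/J the ETS factor genes Ets1 and Fli1 fell by 1.66 ± 0.21 and 1.34 ± 0.21. These list counts depend on the scaling. With no scaling between arrays, 4 endothelial identity markers were called higher and 1 lower in A/J and 2 and 2 in C3H/HeJ, and the list medians there turned to 0.34 and 0.15, that is −0.12 and −0.41 relative to the median of all probe sets. The transcription factors then had 1 called higher and 2 lower in A/J and 1 higher in C3H/HeJ, and all calls in C57BL/6J and all calls of a fall in C3H/HeJ were lost. With median centring 2 were called higher and 3 lower in A/J, 1 lower in C57BL/6J, and 1 higher and 3 lower in C3H/HeJ. Ets1 and Fli1 kept their calls in A/J under both settings, and Tek was called lower in all 3 strains without scaling too. Of all list genes that the naming rule took, 29 of 40 in A/J, 4 of 19 in C57BL/6J and 28 of 46 in C3H/HeJ were called without scaling.

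In whole lung, fewer endothelial cells and less RNA per endothelial cell cannot be told apart.

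Other cell types moved too. Of 9 capillary markers, the numbers called lower were 5, 1 and 4 in strain order, with Gpihbp1, which anchors lipoprotein lipase on capillaries, among them in each strain; it fell by 1.18 ± 0.20, 0.77 ± 0.20 and 1.79 ± 0.20. Hpgd, which encodes a prostaglandin-degrading enzyme, fell by 3.03 ± 0.40 in A/J and 2.62 ± 0.40 in C3H/HeJ, and the endothelin receptor gene Ednrb by 1.60 ± 0.36 in C3H/HeJ. Without scaling, 1 capillary marker was called lower in A/J and 3 lower and 2 higher in C3H/HeJ, and the C57BL/6J call was lost. Of 8 alveolar type 1 markers, 2 were called lower in A/J (Clic5, −0.49 ± 0.17, and Akap5, −0.37 ± 0.12) and 3 in C3H/HeJ (Cav1, −0.63 ± 0.16, Rtkn2, −0.62 ± 0.16, and Akap5, −0.42 ± 0.12). Of 7 alveolar type 2 markers measured, 3 were called lower in C3H/HeJ: Slc34a2 (−0.79 ± 0.19), Etv5 (−0.75 ± 0.23) and Abca3 (−0.67 ± 0.15). None of these alveolar calls held without scaling or with median centring, and without scaling Clic5, Akap5, Rtkn2 and Abca3 turned positive. Of 10 macrophage markers, 7 were called higher and 1 lower in A/J, 1 higher in C57BL/6J, and 8 higher and 1 lower in C3H/HeJ, and their mean level ranged from 7.51 to 7.57 in A/J controls and 7.61 to 8.60 after irradiation, and from 7.46 to 7.59 and 8.30 to 8.71 in C3H/HeJ. Cd68 rose in A/J (1.15 ± 0.32), Msr1 in C3H/HeJ (1.81 ± 0.42), Fcgr3 in both (1.10 ± 0.29 and 1.49 ± 0.29) and Cd14 in C57BL/6J (0.61 ± 0.15) and C3H/HeJ (1.61 ± 0.15), while Siglecf, a marker of alveolar macrophages, fell in A/J by 1.32 ± 0.28. Of 7 fibroblast markers, 3 were called higher in A/J, and 3 higher and 1 lower in C3H/HeJ. Those higher were the collagen genes Col1a1 (2.23 ± 0.23 in A/J, 1.76 ± 0.23 in C3H/HeJ), Col1a2 (1.36 ± 0.17 and 0.84 ± 0.17) and Col3a1 (1.15 ± 0.19 and 1.29 ± 0.19). The other genes of that list, Pdgfra, Dcn, Lum and Tcf21, were called higher in no strain. The list medians were −0.07, 0.34 and 0.48, and the lowest changes were −0.37 in A/J and −0.80 in C3H/HeJ. Of 9 smooth muscle and pericyte markers, 4 were called higher in A/J, among them Rgs5 (1.83 ± 0.34), Des (0.87 ± 0.20) and Tagln (0.71 ± 0.19), and 1 in C3H/HeJ (Rgs5, 1.59 ± 0.34). Of 7 squamous epithelium markers, Krt78 was called lower in C57BL/6J (−2.76 ± 0.56) and Sprr1a higher in C3H/HeJ (1.82 ± 0.57). The mean level of this list was 8.76 and 8.83 in C57BL/6J controls 1 and 3, against 4.66 in control 2. Its median change in C57BL/6J was −2.83, and −0.53 without the 3 arrays high in Krt4, so it rests on which controls are used. Skeletal muscle markers averaged 8.34 and 8.13 in C57BL/6J controls 1 and 3, 4.47 in control 2, and 8.33 in A/J irradiated 3. The part of these cell types in the members' changes was not tested. The scaling that follows cannot test it either, because the endothelial markers it uses changed themselves, in both directions in A/J.

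Each array was also set against its own mean over the endothelial identity markers, as an alternative scaling. Aplnr was still called lower in every strain (−1.30 ± 0.35, −2.41 ± 0.35 and −1.34 ± 0.35), and Apln still higher (1.08 ± 0.15, 1.04 ± 0.15 and 1.91 ± 0.15). Calcrl was called lower in A/J (−1.70 ± 0.16, limma adjusted p = 3e-06) and C3H/HeJ (−0.71 ± 0.16, adjusted p = 0.0013), with −0.23 ± 0.16 in C57BL/6J. Ramp2 was called lower in C3H/HeJ alone of the 3 tests (−0.55 ± 0.19, adjusted p = 0.016), with −0.48 ± 0.19 in A/J and in C57BL/6J. Kdr lay at 0.07, 0.24 and 0.11, and Nrp1 at −0.16, 0.14 and 0.18, none of them called. Adm was called higher in C57BL/6J (1.77 ± 0.37) and C3H/HeJ (1.21 ± 0.37), and in C3H/HeJ the brightest probe sets of Vegfa (0.54 ± 0.21) and Flt4 (0.83 ± 0.16) were called higher too.

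The difference of irradiation effects between strains was tested directly. Between A/J and C57BL/6J, 2 of the 10 genes were called, beside 6.08% of all genes. The fall of Calcrl was larger in A/J than in C57BL/6J by 1.33 ± 0.20 (2.51-fold, limma adjusted p = 0.0012), and its second probe set gave the same direction. The effect on Adm was 1.71 ± 0.44 lower in A/J than in C57BL/6J (adjusted p = 0.0262), a call that was lost without A/J control 2 or without C57BL/6J control 1 or 3 or irradiated 1 (adjusted p from 0.017 to 0.2 over 28 alternatives). For Aplnr the difference was 1.25 ± 0.52 (95% interval 0.15 to 2.36, adjusted p = 0.159) and for Apln 0.18 ± 0.18 (−0.21 to 0.56, adjusted p = 0.614). Between A/J and C3H/HeJ, and between C57BL/6J and C3H/HeJ, limma called 0 of 10 genes, with 2 and 3 at an unadjusted p under 0.05, beside 1.07% and 1.03% of all genes called. Among brightest probe sets the nearest was Calcrl between C57BL/6J and C3H/HeJ, at 0.78 ± 0.20 (adjusted p = 0.0734). Second probe sets came nearer, with adjusted p of 0.0538 for Adm and 0.0611 for Vegfa between A/J and C3H/HeJ and 0.0628 for Calcrl between C57BL/6J and C3H/HeJ.

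Strains also differed within a state, for 2 of 10 genes between untreated A/J and C57BL/6J (9.74% of all genes), 1 between untreated A/J and C3H/HeJ (4.19%) and 2 between untreated C57BL/6J and C3H/HeJ (10.1%). Aplnr was lower in untreated C57BL/6J lung than in A/J by 2.10 ± 0.37 (4.27-fold, limma adjusted p = 0.0013) and than in C3H/HeJ by 2.31 ± 0.37 (4.96-fold, adjusted p = 0.000617). The gap persisted in irradiated lung, at 3.35 ± 0.37 and 3.07 ± 0.37. Apln was lower in untreated C57BL/6J than C3H/HeJ lung by 0.46 ± 0.13 (adjusted p = 0.0299), a call made in 17 of 27 alternatives and lost without scaling, with median centring and with endothelial scaling, among others (differences from −0.54 to −0.19, adjusted p from 0.019 to 0.9). In irradiated lung 4 of 10 genes differed between A/J and C57BL/6J (19.8% of all genes), 1 between A/J and C3H/HeJ (10.9%) and 4 between C57BL/6J and C3H/HeJ (16.6%). Irradiated C3H/HeJ lung had the highest Apln level, above A/J by 0.68 ± 0.13 (not called without scaling or with only the groups compared) and above C57BL/6J by 1.03 ± 0.13. Calcrl in irradiated C57BL/6J lung was above A/J by 0.96 ± 0.14 and above C3H/HeJ by 0.66 ± 0.14. Without scaling the first gap, A/J minus C57BL/6J, was −0.34 (adjusted p = 0.4) and the second 0.31 (adjusted p = 0.64), and the second was not called with median centring either.

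The calls in C57BL/6J rest on few arrays. Leaving out control 1 or 3 there ended the calls of Apln, Calcrl and Adm, leaving out irradiated 2 those of Apln and Calcrl, leaving out irradiated 1 those of Calcrl and Adm, and leaving out control 2 that of Calcrl. Without C57BL/6J controls 1 and 3 and A/J irradiated 3, the arrays high in Krt4, limma called 0 of 10 genes in C57BL/6J, with 4 at an unadjusted p under 0.05, and the remaining control had to be assumed to vary like the other groups. The values were then −2.64 ± 0.54 for Aplnr (adjusted p = 0.11, its highest over 28 alternatives), 0.56 ± 0.20 for Apln (adjusted p = 0.46), −0.67 ± 0.22 for Calcrl (adjusted p = 0.38) and 0.91 ± 0.44 for Adm (adjusted p = 0.63). Over the 28 alternatives the adjusted p ranged from 0.00094 to 0.82 for Apln, from 0.0077 to 1 for Calcrl and from 0.0067 to 0.63 for Adm in C57BL/6J. Of the 19 list genes that the naming rule took from C57BL/6J, limma then called 0, with 17 at an unadjusted p under 0.05. In A/J and C3H/HeJ, the calls of Apln, Aplnr and Calcrl held without these arrays. The A/J call of Nrp1 was lost without A/J control 2 or irradiated 2 (adjusted p from 0.0062 to 0.77 over the 28).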

How the data were processed

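The deposited values are 1 linear signal intensity per probe set and array, which the authors made with MAS5 per the submitters' processing notes (no version given); how background and scanning were handled is not given in the sources used here. Arrays were placed in groups by their strain and treatment labels. Intensities differed in overall brightness between arrays, with medians of 14.8 to 39.7, so log2(signal + 7) was quantile normalized. This scale understates changes of dim genes.

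A probe set was kept if at least 3 of the 18 arrays had it above the median of all values. The 64 control probe sets, 932 probe sets naming several genes and 9160 without a gene in the annotation served no gene value. Of several kept probe sets for 1 gene, the brightest by mean represented it, and the others are reported beside it.

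limma 3.58.1 in R 4.3.3 fitted 6 group means to all 18 arrays, with 12 residual degrees of freedom, two-sided tests and Benjamini-Hochberg adjustment over all kept probe sets. All adjusted p-values come from this fit, and ± after a change is its standard error. The number of arrays limits precision. The fit was tested on simulated data.

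Members and gene lists were chosen with earlier results of these data known. All members are named with every probe set. From each list, up to 3 called genes per strain with the largest changes are named, and for each member the 3 genes most correlated with it. Unc5b, Arrb1, Nos3, Ldha, Nrp2, Sox7 and Sox18 are also given in strains outside that rule.

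Alternatives were no scaling, median centring, scaling to endothelial markers, pseudocounts of 1 and 32, no filter, 1 probe set per gene, only the groups compared, a replicate block, each array left out in turn, and the 3 arrays high in squamous keratins left out.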

Additional observations from a re-analysis of the deposited data

Results flagged for a closer look

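The effect of irradiation differed between A/J and C57BL/6J, by limma's test of the difference itself, for 6 probe sets of 4 genes. For Calcrl, which encodes the receptor of adrenomedullin and CGRP, the effect in A/J minus that in C57BL/6J was −1.33 (adjusted p = 0.0012) on the brighter probe set and −2.29 on the second. Calcrl fell in both strains on the brighter one, and the difference was called in 27 of 28 alternatives, the exception being no scaling.

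For Adm the differences were −1.71 and −1.53, called in 20 of 28 and 18 of 27 alternatives. Adm was higher in irradiated than in untreated C57BL/6J lung on both probe sets, and in A/J neither probe set was called. Untreated A/J lung had the highest mean Adm level of the 3 untreated strains, and the same control values enter these differences.

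For the second Vegfa probe set the difference was −0.62 (adjusted p = 0.048), with a fall called in both strains, and it was called in 3 of 27 alternatives. For the dimmer Flt4 probe set it was 0.63 (adjusted p = 0.027), where neither strain's own change was called, and it was called in 14 of 27. What lies behind these differences was not tested, and the RNA integrity ratios of irradiated A/J arrays (0.413 to 0.551 for actin) stand beside them.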

How the results depend on the processing

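Limits: 3 arrays a group, controls whose separate origin is not labelled, and arrays that stand apart limit these counts. Of the comparisons of member probe sets under alternatives, 4816 stayed on the same side of the threshold, 180 lost and 78 gained a call, and 8 reversed. Among the 4816, 229 changed sign, each without a call in the main fit or in that alternative. In A/J, 5 of 10 genes were called, and 3 without scaling, with median centring, with endothelial scaling and with only the groups compared (3 to 6 with 1 array left out). In C57BL/6J the 4 became 2 without scaling and without the filter, 1 with only the groups compared, and 0 without the 3 arrays high in squamous keratins (1 to 5 with 1 array left out). In C3H/HeJ the 5 became 3 without scaling, 4 with median centring and 7 with endothelial scaling (5 to 6 with 1 array left out). For A/J against C57BL/6J the 2 became 1 without scaling, without the filter, with only the groups compared and without the 3 arrays, and 4 with median centring (1 to 3 with 1 array left out). For A/J against C3H/HeJ 0 became 2 with endothelial scaling. For C57BL/6J against C3H/HeJ 0 became 1 with a pseudocount of 32 (0 to 1 with 1 array left out).

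Reversals in A/J came without scaling, for Nrp1 on its brightest (0.13) and another probe set (0.088). In C3H/HeJ, the brightest Nrp1 probe set turned to 0.21 and the second Vegfa probe set to 0.037 without scaling. With endothelial scaling, these turned there to 0.18 and 0.062, the brighter Vegfa probe set to 0.54 (adjusted p = 0.031) and the dimmer Flt4 one to 0.54 (adjusted p = 0.0044). The median of all probe sets moves by 0.46, 0.06 and 0.56 in the 3 strains without scaling, and by 0.23, 0.01 and 0.18 with median centring. Of all called probe sets, 45.9%, 59.1% and 52.5% were higher, in strain order, against 82.2%, 57.7% and 97.4% without scaling and 71.9%, 67.6% and 82.9% with median centring.

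Same-numbered control and irradiated arrays did not deviate together (correlations of −0.086 to 0.042), so the numbers gave no sign of pairing. Such correlations cannot exclude a weak pairing. With the replicate block, 5, 1 and 5 of the 10 genes were called in the 3 strains, against 5, 4 and 5 without it.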

Other observations

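For each gene, the measured genes with the most similar levels over the 18 arrays are given as a description, since all 18 share strains and states. The apelin receptor gene Aplnr lay closest to Sox18 (r = 0.97, and 0.78 after the group means were removed) and Tie1 (0.92 and 0.51), a transcription factor and a receptor gene of endothelium, and to Sh2d4a (0.92 and −0.09). Calcrl lay closest to Cd36, a fatty acid transporter gene of capillaries (0.97 and 0.65), Tmem100 (0.97 and 0.68) and Mme (0.97 and 0.30). Ramp2 lay closest to Wscd1 (0.97 and 0.90), the endothelin receptor gene Ednrb (0.96 and 0.94) and Ppp1r14a (0.95 and 0.84). Kdr lay closest to the phosphatase gene Ptprm (0.92 and 0.89), Tspan9 and Septin7, and Nrp1 to Nckap5, Adgre5 and Prkci. Flt1 lay closest to Adamts5 (0.90 and 0.71), Nhsl1 and Abca3, and Flt4 to Pdia5 (0.79 and 0.77), Elp5 and Grpel1.

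The ligand genes had other neighbours. Apln lay closest to Mgl2, a lectin gene of macrophages and dendritic cells (0.95 and 0.63), Rrm1 (0.94 and 0.47) and Cfi (0.94 and 0.37). Adm lay closest to Arhgap30 (0.85 and 0.71), AW112010 and Nlrc3, and Vegfa to Flrt3 (0.84 and 0.86), Zdhhc17 and Hnrnph1. Among the members themselves, Calcrl and Ramp2 correlated at 0.83 (0.68 within groups) and Calcrl and Apln at −0.80 (−0.04 within groups). Kdr and Ramp2 correlated at 0.45 over all arrays and at 0.77 within groups.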
